A study of Mus musculus with 12 samples.

Results

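Transcripts of 10 genes of the Hedgehog pathway were followed in AML12 cells, an immortalized mouse hepatocyte line, after copper overload and bile acid exposure. The genes were chosen by their symbols, which are the ligand Ihh, the receptor Ptch1, the signal transducer Smo with Evc, Evc2 and Arrb1, and the Gli factors Gli1, Gli2 and Gli3 with their inhibitor Sufu. All 10 of 10 were found among the 24824 genes of the table, and 8 averaged at least 1 FPKM across libraries and were tested. Gli1 and Gli2 lay below this limit and are described by their reads.

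Group A was left untreated in standard growth medium. Group B received 300 μM CuCl2 together with 40 nM elesclomol, a molecule that carries copper into cells (Cu/ES). Group C received Cu/ES at those doses plus 1000 μM taurocholic acid (TCA), a conjugated bile acid, and group D received 1000 μM TCA alone. All groups were AML12 cells collected at 24 h, with 3 libraries of polyadenylated RNA in each. The labels do not say that the libraries of a group came from separate cultures, so the p-values measure the spread between these libraries only. FPKM is the number of reads of a gene scaled to the length of the gene and to the total reads of the library, and levels of different genes are compared on this scale only.

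The Hedgehog pathway is switched on by secreted ligands such as Indian hedgehog, which bind Patched at the cell surface. Free Patched holds Smoothened inactive, and bound Patched releases it, so that Smoothened enters the primary cilium and Gli factors pass from repressors to activators of transcription. In adult liver the pathway is known to be quiet in healthy hepatocytes and to be engaged during injury and repair, largely between ligand-producing damaged cells and responding ductular and stromal cells.

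Libraries are named by group and replicate number, as in A1. Recovered library totals ran from 38298857 to 39782142 reads in groups A and D and from 29115011 to 34912748 in groups B and C. Between 8458 and 8711 genes reached an FPKM of 1 in a library of groups B and C, against 10570 to 10893 in groups A and D. Of the markers that define hepatocytes, Alb, Apob and Hnf4a stayed under 0.1 FPKM in every library. Apoa1, also listed, averaged 0.00863 FPKM untreated, 1.86 under Cu/ES, 1.11 under Cu/ES with TCA and 0 under TCA. The summed hepatocyte list rested on the keratins Krt8 and Krt18. Its sum was 596 to 649 FPKM in untreated libraries and 236 to 287 under Cu/ES. With TCA alone the sum was 697 to 717, and with both Cu/ES and TCA it was 172 to 208. Of 8 listed hepatocyte markers 6 were in the table and 2 averaged at least 1 FPKM. Mesenchymal markers, led by Vim, summed to between 2119 and 2339 FPKM in untreated libraries, 298 and 354 under Cu/ES, 154 and 196 under Cu/ES with TCA, and 1814 and 1936 under TCA. Of the 7 mesenchymal markers found, 4 averaged at least 1 FPKM, while Col1a2 and Acta2 stayed under 0.6 FPKM in every library. These low markers went the other way from the sum. Col1a2 averaged 0.0116, 0.0508, 0.0606 and 0 FPKM in groups A to D, and Acta2 0.00604, 0.360, 0.0838 and 0.0179. The cholangiocyte list, carried by Krt19 and Sox9, summed to 231 to 326 FPKM in untreated libraries, 111 to 140 under Cu/ES, 131 to 136 under Cu/ES with TCA and 158 to 246 under TCA. These 2 markers moved in opposite directions. Krt19 averaged 268, 77.3, 80.8 and 203 FPKM in groups A to D, while Sox9 averaged 10.6, 50.9, 52.4 and 8.50. The macrophage list, nearly all Cd68 with Adgre1 and Ptprc under 0.1 FPKM in every library, summed to 72.5 to 102 FPKM in group A and to 24.1 to 37.0 in the other groups. The endothelial list, led by Pecam1, summed to 0.922 to 1.16 FPKM in untreated libraries, 6.79 to 10.5 under Cu/ES, 16.5 to 19.7 under Cu/ES with TCA and 0.865 to 1.25 under TCA. The sums of the lists other than the macrophage list moved with Cu/ES as several members did, while the macrophage sum was as low under TCA alone. The part of these lists in the results was not tested. In bulk RNA, fewer cells of a type and less RNA per cell cannot be told apart.

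The stretches of 250 bases before the start of 4 members are shown because these genes moved in different ways: Ihh rose, Smo fell far below the median gene, and Ptch1 and Sufu moved with the median gene. The sequences are those of RefSeq for GRCm38.p6, read 5′ to 3′ on the strand of the gene. Capitals mark matches to the core of the metal response element, the site of the zinc-sensing factor Mtf1, and to a unit of the heat shock element.
Ihh (chr1:74951673-74951922, minus strand): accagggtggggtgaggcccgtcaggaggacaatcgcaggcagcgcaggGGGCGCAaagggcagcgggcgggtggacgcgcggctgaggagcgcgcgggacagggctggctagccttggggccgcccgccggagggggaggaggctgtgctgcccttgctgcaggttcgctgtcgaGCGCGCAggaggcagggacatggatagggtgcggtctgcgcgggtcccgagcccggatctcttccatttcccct
Smo (chr6:29735247-29735496, plus strand): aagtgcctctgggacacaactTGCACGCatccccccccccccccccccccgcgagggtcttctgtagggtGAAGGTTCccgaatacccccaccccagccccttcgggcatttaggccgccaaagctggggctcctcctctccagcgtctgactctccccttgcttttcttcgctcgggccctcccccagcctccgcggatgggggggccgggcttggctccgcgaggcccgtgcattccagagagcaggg
Ptch1 (chr13:63565736-63565985, minus strand): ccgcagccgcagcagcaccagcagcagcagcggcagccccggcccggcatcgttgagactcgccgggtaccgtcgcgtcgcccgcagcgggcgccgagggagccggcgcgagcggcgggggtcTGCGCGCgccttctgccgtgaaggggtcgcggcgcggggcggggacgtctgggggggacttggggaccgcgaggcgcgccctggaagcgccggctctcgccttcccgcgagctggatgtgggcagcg
Sufu (chr19:46396646-46396895, plus strand): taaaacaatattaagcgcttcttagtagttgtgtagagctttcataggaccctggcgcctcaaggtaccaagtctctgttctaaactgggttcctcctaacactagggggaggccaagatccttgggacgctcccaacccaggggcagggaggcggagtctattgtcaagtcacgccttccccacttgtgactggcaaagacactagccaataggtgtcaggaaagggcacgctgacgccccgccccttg

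Sequences were on hand for 8 members, without Arrb1 and Gli1. Each was searched on both strands, from 250 bases before to 50 after the start, for the Gli motif GACCACCCA, the heat shock element unit GAANNTTC and the metal response element core TGCGCNC or TGCACNC. The Gli motif was found in 0 of the 8 and in 0.253% of all 32851 promoters listed. The heat shock unit was found in Smo alone of the 8, at 180 bases before the start, and in 7.86% of all promoters. The metal response core was found in 6 of the 8 (Ihh, Gli2, Evc, Smo, Gli3 and Ptch1) and in 25.7% of all promoters. In Ihh it began 201 and 74 bases before the start, in Smo 229 and in Ptch1 127 bases before it, while the match in Evc began 11 bases after the start. The core is rich in G and C, and so were the windows of the members, which held 56.3% (Sufu) to 76.3% (Ptch1) G and C against a median of 52.7% over all promoters. The heat shock unit reads alike on both strands, and the 2 matches of Gli2 overlap each other. A match describes letters and was not tested as a binding site.

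In untreated cells Arrb1 and Smo had the highest levels of the 10 members, and the ligand Ihh was almost absent. In group A the order of mean FPKM was Arrb1 (25.03 ± 4.68, SD, n = 3), Smo (15.2 ± 0.622), Gli3 (8.55 ± 0.514), Sufu (8.24 ± 0.532), Evc2 (8.02 ± 0.649), Ptch1 (5.13 ± 1.09), Evc (4.82 ± 0.588), Gli1 (0.716 ± 0.0654), Gli2 (0.155 ± 0.0356) and Ihh, listed at 0 in all but 1 library. The ranges of Gli3, Sufu and Evc2 overlapped one another, as did those of Ptch1 and Evc, so these neighbours in the order did not differ beyond their spread. In group B the order was Gli3 (3.97 ± 0.30), Sufu (3.02 ± 0.232), Ptch1 (1.93 ± 0.145), Ihh (1.64 ± 0.139), Evc2 (0.906 ± 0.146), Smo (0.707 ± 0.214), Arrb1 (0.551 ± 0.145), Evc (0.162 ± 0.0249), Gli1 (0.121 ± 0.0611) and Gli2 (0.0130 ± 0.0114). The ranges of Evc2 and Smo overlapped, as did those of Smo and Arrb1 and those of Evc and Gli1. In group C Ihh had the highest mean level of the 10 members (4.27 ± 0.398), above Gli3 (3.78 ± 0.732), although the ranges of these 2 genes overlapped.

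**Figure D1:**
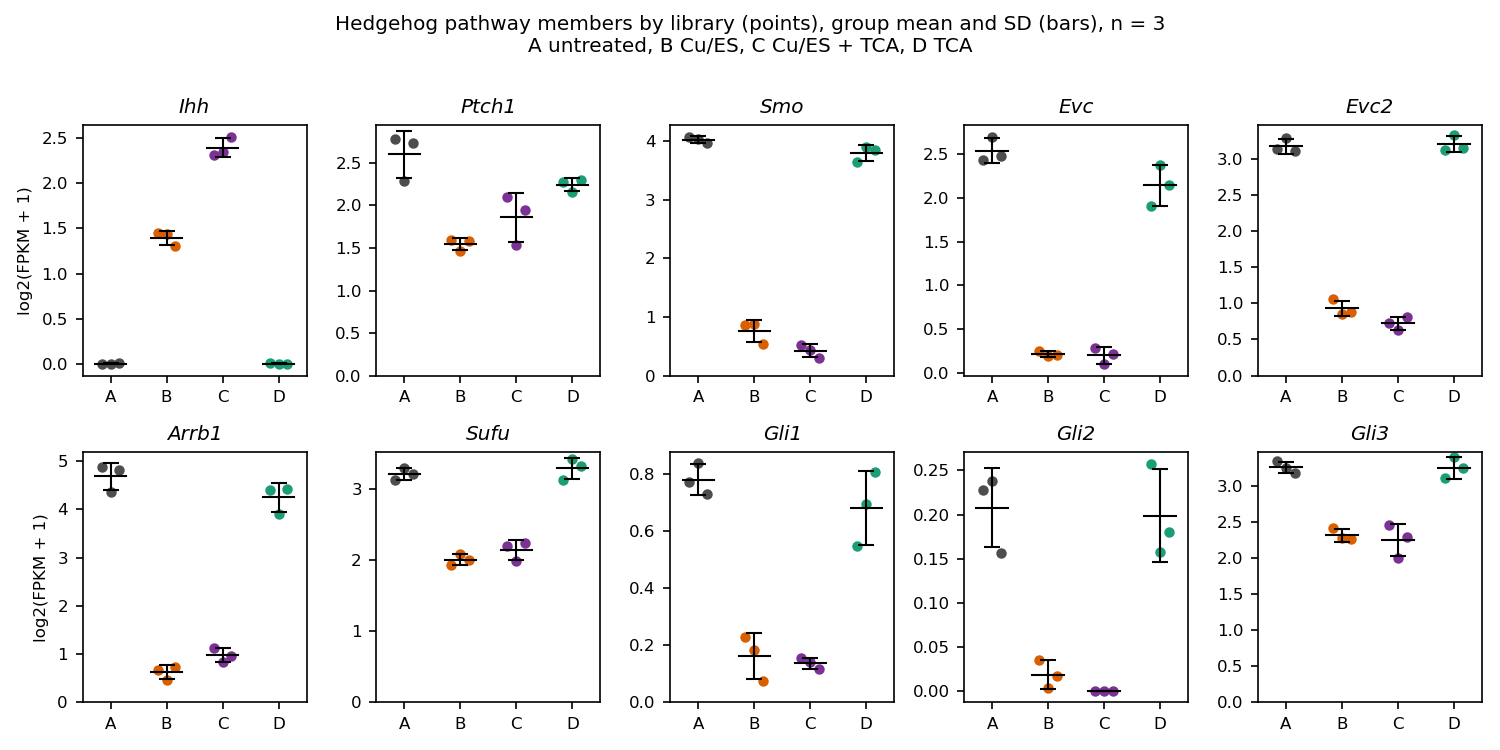
Each panel plots log2(FPKM + 1) of a member on the y axis for the 3 libraries of groups A (untreated), B (Cu/ES), C (Cu/ES and TCA) and D (TCA), with points for libraries and bars for the group mean and SD. Ihh is near 0 in groups A and D and highest in group C, Smo, Evc, Evc2 and Arrb1 drop to low levels in groups B and C, and the y axes differ between panels.

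Cu/ES was compared with no treatment to ask how copper overload changes these transcripts. On log2(FPKM + 1), 6 of the 8 tested members were lower in group B past both thresholds (limma, an adjusted p below 0.05 with a log2 fold change beyond 1 in size), where 53.0% of all 10615 genes tested were lower, and Ihh was higher, where 10.1% of genes were. The median over the genes tested was a log2 fold change of -1.10, and the members are read against that shift. Ihh passed the filter on low values only through groups B and C, and Smo, Evc, Evc2 and Arrb1 had mean levels below 1 FPKM in both of those groups and passed through groups A and D, so that these 5 had to differ and the count supports nothing by itself. After median-ratio scaling of the FPKM values the median gene lay at -0.03, 25.6% of genes were lower and 26.0% were higher, and 4 members (Arrb1, Smo, Evc and Evc2) were lower and Ihh was higher past both thresholds.

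The ligand appeared under Cu/ES. Ihh, Indian hedgehog, had 0, 0 and 0.00839 FPKM in the untreated libraries, from 0, 0 and 1 reads, and 1.74, 1.70 and 1.48 FPKM under Cu/ES, from 168, 166 and 139 reads. The groups did not overlap. Read sums of 473 in group B and 1 in group A gave a ratio of 582 per library total, with a 95% counting interval of 104 to 23050, and the fitted log2 fold change was 1.40 ± 0.08 (SE, adjusted p = 3.23e-10). Ihh passed the filter on low values only through groups B and C, so it had to be higher there and the p-value of the fit adds no support. Intervals on reads cover counting error only.

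TCA added to Cu/ES went with more Ihh. Group C had 3.99, 4.09 and 4.72 FPKM from 354, 435 and 465 reads, and group D had 0.00824, 0 and 0 FPKM from 1, 0 and 0 reads. All 3 libraries of group C lay above all of group B, with 2.60 times the reads per library total (95% counting interval 2.34 to 2.9) and a fitted log2 difference of 0.99 ± 0.08 (adjusted p = 1.34e-06). Group C was above group D by 2.39 ± 0.08 on the log2 scale (adjusted p = 1.15e-12), a direction that the filter also fixed.

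Genes next to Ihh moved with it. In GENCODE vM21 the order along the minus strand is Cnppd1, Slc23a3, Nhej1, Ihh and Cfap65, and these neighbours were picked after values were seen. Cnppd1, the outermost, had 22.5 ± 2.0 FPKM untreated, 60.6 ± 2.68 under Cu/ES, 91.2 ± 0.968 under Cu/ES with TCA and 21.5 ± 1.45 under TCA. Slc23a3, a member of the vitamin C transporter family, had 0.0481 ± 0.0329, 4.42 ± 0.501, 12.5 ± 2.01 and 0.169 ± 0.0314 FPKM in the same groups. Both rose in group B (log2 fold changes 1.40 and 2.37, adjusted p = 1.46e-10 and 3.24e-11) and again in group C (0.58 and 1.31 against group B, adjusted p = 3.50e-05 and 1.76e-06). Nhej1, a DNA end-joining factor and the gene just before Ihh, had 3.23 ± 0.270 and 3.49 ± 0.473 FPKM in groups A and B, a log2 difference of 0.08 that did not pass (adjusted p = 0.388), and 7.94 ± 0.127 in group C, which passed against group B (1.0, adjusted p = 2.57e-06). Cfap65, just past Ihh, had 0 reads in every library of groups A and D, 5 or 6 under Cu/ES and 13 to 16 under Cu/ES with TCA. Where within this stretch the Ihh reads began was not tested.

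**Figure D2:**
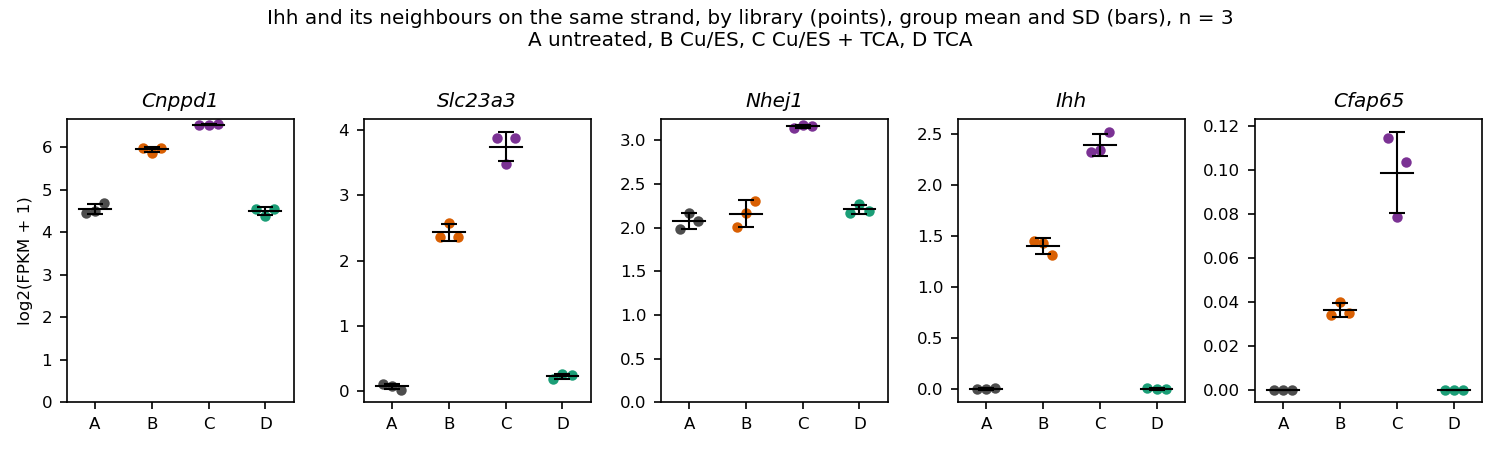
Each panel plots log2(FPKM + 1) on the y axis by library (points) with the group mean and SD (bars, n = 3) for Ihh and its neighbours, ordered from left to right along the direction of transcription, in groups A (untreated), B (Cu/ES), C (Cu/ES and TCA) and D (TCA). Group C is highest in all 5 panels and Nhej1 is the panel in which groups A and B overlap, with the y axes differing between panels.

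The receptor fell with the median gene. Ptch1, which binds the ligand, restrains Smo and is itself induced by Gli factors, had 5.89, 3.88 and 5.63 FPKM untreated and 2.03, 1.76 and 1.99 under Cu/ES, with no overlap. Its log2 fold change was -1.05 ± 0.15 (adjusted p = 8.48e-06), 0.05 above the median of all genes, and after median-ratio scaling it was -0.08 (adjusted p = 0.594). After quantile normalization its sign was reversed, at 0.35, and passed the adjusted p (0.0307). In the fit without A1 it was -0.96 and without A3 -0.99, inside the fold threshold.

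Group C had 3.29, 1.90 and 2.84 FPKM of Ptch1, of which C2 lay within the range of group B. The log2 difference between groups C and B was 0.31 (95% interval -0.0044 to 0.63, adjusted p = 0.102) and did not pass, but passed without C2 (0.47, adjusted p = 0.00978). Group D, with 3.84, 3.46 and 3.93 FPKM, overlapped group A through the low library A2. The difference of -0.36 (-0.67 to -0.04, adjusted p = 0.0983) did not pass, and passed without A2 (-0.51, adjusted p = 0.0235). With the replicate number as a block, which the labels do not give as a pairing, it passed as well (adjusted p = 0.0241), as did C against B (adjusted p = 0.0244).

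The signal transducer and its partners fell below the median gene, although by the filter on low values Smo, Evc, Evc2 and Arrb1 had to be lower. Of the genes tested, 3.15% fell further than Smo, 15.5% further than Evc, 17.1% further than Evc2 and 0.556% further than Arrb1. Smo, the receptor-like protein that relays the signal inside the cilium, had 15.7, 15.4 and 14.5 FPKM untreated and 0.823, 0.838 and 0.460 under Cu/ES, from 2332 to 2473 and from 58 to 110 reads. Mean FPKM was 21.5 times higher in group A, and the log2 fold change was -3.26 ± 0.11 (adjusted p = 1.35e-12). After median-ratio scaling it was -2.36 (adjusted p = 2.47e-10).

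Group C had still less Smo, with 0.436, 0.356 and 0.234 FPKM from 31 to 52 reads. All 3 libraries were below those of group B, though C1 and B3 lay close together, and the log2 difference was -0.34 ± 0.11 (adjusted p = 0.0189). It no longer passed without B1 (-0.29, adjusted p = 0.0727), without B2 (-0.28, adjusted p = 0.0734) or without C3 (-0.28, adjusted p = 0.0781). With TCA alone the libraries had 11.5, 14.0 and 13.3 FPKM, all below group A, and the difference of -0.23 (-0.46 to 0.0027, adjusted p = 0.144) did not pass.

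Evc and Evc2 form the ciliary complex that couples Smo to the Gli factors, and are divergently transcribed neighbours on chromosome 5. Evc had 4.38, 5.48 and 4.58 FPKM untreated and 2.75, 4.18 and 3.44 under TCA, but 0.189, 0.141 and 0.156 under Cu/ES and 0.222, 0.0731 and 0.163 under Cu/ES with TCA. Groups A and D did not overlap B or C, and each library of group D lay below each of group A. Mean FPKM was 29.7 times higher in group A than in group B, with a log2 fold change of -2.32 ± 0.11 (adjusted p = 7.03e-11). Groups C and B differed by -0.01 (-0.26 to 0.23, adjusted p = 0.941).

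Evc was lower under TCA than without treatment on FPKM as deposited (-0.39, adjusted p = 0.0258), but this was lost after median-ratio scaling (adjusted p = 0.058) and without A2 (-0.31, adjusted p = 0.0878), D1 (-0.27, adjusted p = 0.114) or D3 (-0.40, adjusted p = 0.0673). Evc overlaps Crmp1 on the opposite strand, which had 14.7, 0.523, 0.604 and 14.8 mean FPKM in groups A to D, and the strand setting of the counting is not given in the sources used here, so their reads may be shared.

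Evc2 had 7.74, 8.77 and 7.57 FPKM untreated and 7.69, 9.02 and 7.88 under TCA, but 1.07, 0.801 and 0.844 under Cu/ES and 0.650, 0.552 and 0.752 under Cu/ES with TCA. Its log2 fold change in group B was -2.24 ± 0.09 (adjusted p = 1.30e-11), with 8.85 times more mean FPKM in group A. After median-ratio scaling it was -1.34 (adjusted p = 6.30e-09). After quantile normalization it was -0.89 (adjusted p = 5.87e-07), inside the fold threshold. All libraries of group C lay below those of group B, and the difference of -0.21 (-0.41 to -0.0043, adjusted p = 0.0914) did not pass as deposited and passed after median-ratio scaling (-0.25, adjusted p = 0.0391). Groups D and A overlapped (0.03, -0.17 to 0.23, adjusted p = 0.879).

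Arrb1, beta-arrestin 1, an adaptor known to help carry Smo to the cilium, lost the most. It had 28.3, 19.7 and 27.2 FPKM untreated and 0.604, 0.387 and 0.663 under Cu/ES, so that mean FPKM was 45.4 times higher in group A. The log2 fold change was -4.06 ± 0.16 (adjusted p = 5.95e-12). After median-ratio scaling it was -3.18 (adjusted p = 3.03e-10).

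Group C had 1.2, 0.792 and 0.960 FPKM of Arrb1, above group B in all 3 libraries. The difference of 0.35 (0.02 to 0.69, adjusted p = 0.0829) did not pass as deposited and passed after median-ratio scaling (0.45, adjusted p = 0.0385). Group D had 20.3, 14.0 and 20.4 FPKM, of which 2 libraries lay within the range of group A, and the difference of -0.44 (-0.78 to -0.10, adjusted p = 0.0611) did not pass. It passed without A2 (-0.60, adjusted p = 0.018), after quantile normalization (-0.56, adjusted p = 0.0455) and with limma-voom on recovered reads (-0.46, adjusted p = 0.0309). With the replicate number as a block, which the labels do not give as a pairing, it passed as well (adjusted p = 0.0052), as did C against B (adjusted p = 0.00699).

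The Gli factors differed by level. Gli3, which mostly acts as the repressor when the pathway is off, had 9.09, 8.49 and 8.07 FPKM untreated and 4.32, 3.82 and 3.78 under Cu/ES, without overlap. Its log2 fold change of -0.94 ± 0.11 passed the adjusted p (1.64e-06) but not the fold threshold, lay 0.16 above the median of all genes, and turned to 0.15 after median-ratio scaling (adjusted p = 0.179) and to 0.40 after quantile normalization (adjusted p = 0.00144). Group C had 4.47, 3.01 and 3.87 FPKM and group D had 7.57, 9.51 and 8.47, and neither difference passed, with C against B at -0.07 (-0.31 to 0.18, adjusted p = 0.675) and D against A at -0.01 (-0.25 to 0.23, adjusted p = 0.974).

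Sufu, which binds Gli proteins and holds them inactive, had 7.70, 8.76 and 8.26 FPKM untreated and 7.69, 9.70 and 8.93 under TCA, but 2.79, 3.25 and 3.01 under Cu/ES and 3.56, 2.95 and 3.72 under Cu/ES with TCA. Groups A and D overlapped, as did B and C, while the 2 pairs were apart. The log2 fold change between groups B and A was -1.2 ± 0.10 (adjusted p = 2.39e-08), 0.10 below the median of all genes, and did not pass after median-ratio scaling (-0.14, adjusted p = 0.181), with a reversed sign of 0.17 after quantile normalization (adjusted p = 0.0888). Groups C and B differed by 0.13 (-0.08 to 0.34, adjusted p = 0.305) and D and A by 0.08 (-0.14 to 0.29, adjusted p = 0.626).

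Gli1, the activator whose own gene responds to the pathway, was low throughout. It had 99, 112 and 94 reads untreated, 20, 16 and 6 under Cu/ES, 12, 13 and 10 under Cu/ES with TCA, and 67, 89 and 108 under TCA, corresponding to 0.716 ± 0.0654, 0.121 ± 0.0611, 0.0996 ± 0.0141 and 0.607 ± 0.143 FPKM. Groups A and D were above B and C in every library. Group A had 5.90 times the reads of group B per library total (95% counting interval 4.26 to 8.35), and the exact two-sided permutation test gave p = 0.1, the smallest that 3 libraries against 3 allow. With limma-voom on recovered reads of all genes, the log2 fold change was -2.66 ± 0.43 (adjusted p = 4.1e-05). In that fit the median over 22210 genes was -0.53, 8554 genes were lower past both thresholds and 19.4% lay below Gli1. Groups C and B overlapped (exact permutation p = 0.6), as did D and A (exact permutation p = 0.3). Gli1 overlaps Arhgap9 on the opposite strand, which had 0.776, 0.0296, 0.0110 and 0.495 mean FPKM in groups A to D, and reads of the pair cannot be told apart without strand.

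Gli2, the main activator downstream of Smo, was the lowest of the Gli factors. It had 91, 97 and 62 reads untreated, 11, 1 and 5 under Cu/ES, 0, 0 and 0 under Cu/ES with TCA, and 108, 63 and 73 under TCA. Group A had 11.9 times the reads of group B per library total (95% counting interval 7.31 to 20.8, exact permutation p = 0.1), and limma-voom on recovered reads of all genes gave an adjusted p of 3.14e-05. The log2 fold change of Gli2 in that fit was -3.87, and 8.99% of genes lay below it, with the median gene at -0.53. B1 held 11 of the 17 reads of group B, and without it, a check chosen after the data were seen, the ratio was 22.5 (10.2 to 61.9). Against a floor of 3 reads over group C, Gli2 was at least 5.78-fold higher in group B and at least 66.0-fold higher in group D, and the exact permutation p was 0.1 for each. The 95% counting intervals of these ratios began lower, at 4.21 and 53.2. Without B1 the bound for group B was 3.07 and its interval began at 1.81. A count of 0 sets only that upper limit at this depth. Groups D and A overlapped (exact permutation p = 1.0).

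**Figure D3:**
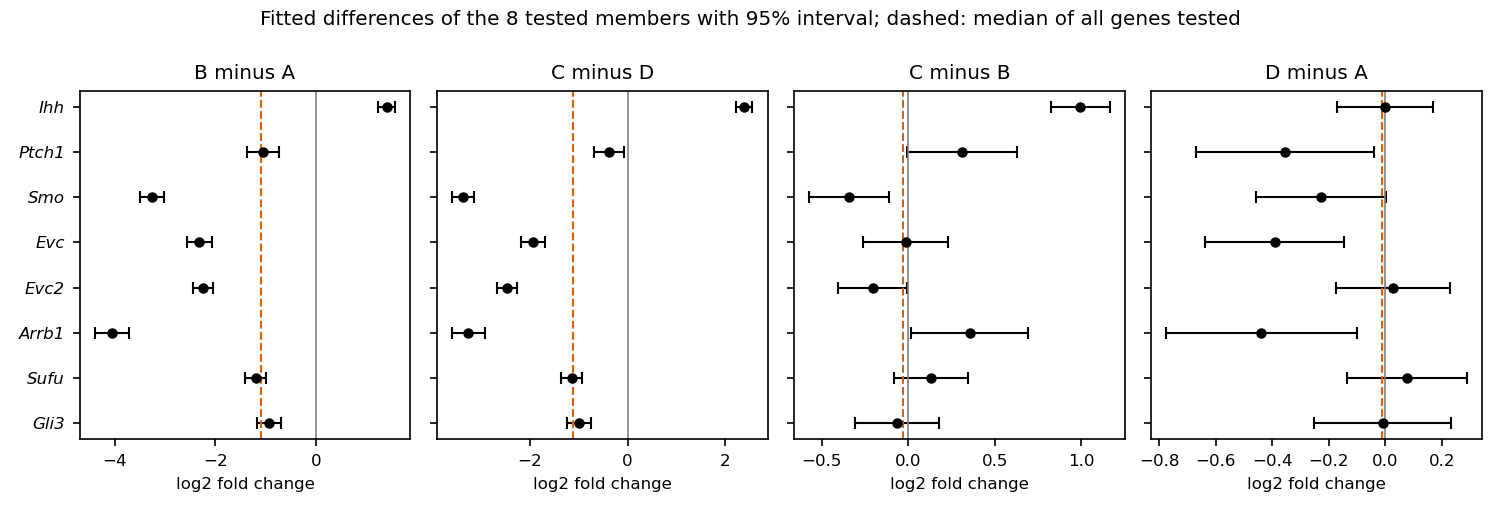
Each panel plots the fitted log2 fold change of the 8 tested members (x axis) with its 95% interval for B minus A, C minus D, C minus B and D minus A, on log2(FPKM + 1), with a dashed line at the median of all genes tested. In the B minus A and C minus D panels Smo, Evc, Evc2 and Arrb1 lie left of the line and Ihh lies to the right, and the x axes differ between panels.

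Adding TCA to Cu/ES was compared with Cu/ES alone to ask whether a bile acid changes the copper response. Of the 8 tested, 0 passed both thresholds between groups C and B with limma, where 2.29% of all genes did, and 3 had an unadjusted p under 0.05 besides Ihh (Smo, Evc2 and Arrb1), so 4 of 8 in all, where 51.0% of genes did. Fitted on recovered reads with limma-voom, Ihh and Smo, 2 of 8, passed both, where 7.35% of genes did. At the adjusted p alone, Ihh was higher, where 20.4% of genes were, and Smo was lower, where 23.6% were. Ihh lay just inside the fold threshold at 0.99 and passed it at 1.11 after median-ratio scaling, and at 1.02 without B1, 1.01 without B2, 1.03 without C1 and 1.02 without C2.

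TCA alone was compared with no treatment to ask what the bile acid does without copper. Between groups D and A, 0 of 8 tested members passed both thresholds with limma, where 0.217% of all genes did, and 0 did with limma-voom on recovered reads, where 0.98% did. Evc, Ptch1 and Arrb1, 3 of 8, had an unadjusted p under 0.05, where 35.8% of genes did. Evc was lower at the adjusted p, where 11.5% of genes were, subject to the losses given above.

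Cu/ES was also compared with no Cu/ES in the presence of TCA. Between groups C and D, 5 of 8 tested members (Smo, Arrb1, Evc2, Evc and Sufu) were lower past both thresholds, where 53.3% of all genes were, and Ihh was higher, where 11.2% were. By the filter on low values Smo, Arrb1, Evc2, Evc and Ihh had to differ, as between groups B and A. The count therefore supports nothing by itself. The log2 differences were -3.37 ± 0.11 for Smo, -3.26 ± 0.16 for Arrb1, -2.48 ± 0.09 for Evc2, -1.94 ± 0.11 for Evc and -1.15 ± 0.10 for Sufu, against a median of -1.12 over all genes. Sufu did not pass after median-ratio scaling (-0.09, adjusted p = 0.373). Gli3, at -0.999, lay just inside the fold threshold. Ptch1 was lower at the adjusted p (-0.38, adjusted p = 0.0231), lost this without C2 (-0.22, adjusted p = 0.125), D1 (-0.37, adjusted p = 0.0571) or D3 (-0.35, adjusted p = 0.0647), and was higher after median-ratio scaling (0.57, adjusted p = 0.00200). Comparisons B against A and C against D share no library.

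The effect of TCA with Cu/ES was then set against its effect without Cu/ES, as the difference of C against B and D against A. It lay above 0 at the adjusted p for 3 of 8 tested members, Ihh, Ptch1 and Arrb1, where 17.7% of all genes did. For Arrb1 the difference was 0.79 ± 0.22 (adjusted p = 0.0129), from 0.35 with Cu/ES and -0.44 without. For Ptch1 it was 0.67 ± 0.21 (adjusted p = 0.0221), from 0.31 and -0.36, and for Ihh 0.99 ± 0.11 (adjusted p = 4.74e-05), from 0.99 and 0.00. For Evc it was 0.38 (0.03 to 0.72, adjusted p = 0.0804) and passed without D2 (0.49, adjusted p = 0.0195). For Smo it was -0.11 (-0.44 to 0.21, adjusted p = 0.584). The value of Ihh repeats C against B, because groups A and D held too few reads to measure its response to TCA without Cu/ES. With limma-voom on recovered reads the difference for Ihh did not pass (1.41, adjusted p = 0.235).

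**Figure D4:**
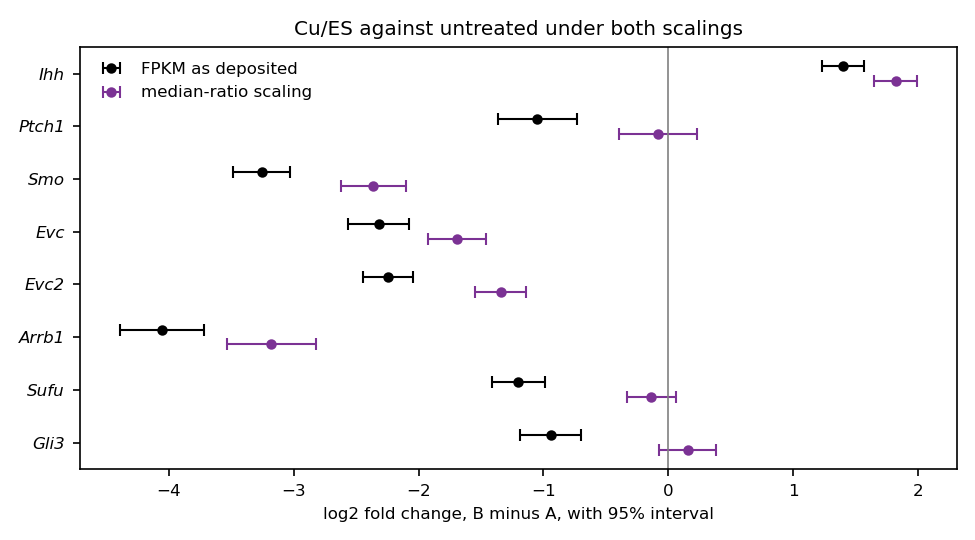
The plot gives the fitted log2 fold change of group B against group A (x axis) with its 95% interval for the 8 tested members, in black for FPKM as deposited and in purple after median-ratio scaling. Arrb1, Smo, Evc and Evc2 stay below 0 and Ihh above 0 under both, while Ptch1, Sufu and Gli3 move to -0.08, -0.14 and 0.15.

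Other genes of the pathway were counted by list. Of 50 listed genes besides the 10 members, 46 were in the table and 34 were tested, and between groups B and A 18 were lower and 1 was higher past both thresholds, where 53.0% and 10.1% of all genes were, and the median log2 fold change was -1.196, near that of all genes. Of the 34, 7 averaged below 1 FPKM in both groups with Cu/ES and passed the filter through groups A and D, which fixes their direction against A and D together. After median-ratio scaling 10 were lower and 8 were higher, where 25.6% and 26.0% of all genes were. Of these 34, 0 passed both thresholds between C and B or between D and A in the limma fit, and 17 and 4 passed the adjusted p, where 44.0% and 22.0% of all genes did.

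Of the 12 tested genes of the cilium list, members included, 11 were lower past both thresholds in group B, where 53.0% of all genes were, with a median of -1.96. After median-ratio scaling 7 were, where 25.6% of all genes were. Of the 12, 7 (Smo, Evc, Evc2, Arrb1, Iqce, Efcab7 and Kif7) averaged below 1 FPKM in both groups with Cu/ES and had to be lower, and of the other 5, 4 were lower as deposited and 1 after median-ratio scaling. Kif3a, a motor subunit needed to build cilia, went from 11.4 ± 0.393 to 1.63 ± 0.136 FPKM (log2 fold change -2.24, adjusted p = 3.92e-12). Kif7, a kinesin at the cilium tip that controls Gli processing, went from 3.02 ± 0.361 to 0.0190 ± 0.00301 FPKM (-1.98, adjusted p = 1.58e-11).

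In the receptor list 3 of 7 genes in the table were tested, and these 3 (Ptch1, Boc and Cdon) were lower past both thresholds, where 53.0% of all genes were, with a median of -1.52. The co-receptors Boc and Cdon averaged below 1 FPKM in both groups with Cu/ES, passed the filter through groups A and D and had to be lower. Boc, which helps present the ligand to Patched, went from 5.06 ± 0.220 to 0.628 ± 0.0363 FPKM (-1.90, adjusted p = 1.28e-11), and Cdon, its relative, from 2.03 ± 0.0478 to 0.0584 ± 0.0419 (-1.52, adjusted p = 8.82e-11). After median-ratio scaling Boc was at -1.09 and Cdon at -1.07.

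Of the genes that make and release ligand, 3 of 7 in the table were tested. Disp1, which releases lipid-bearing ligand from the cell, went from 7.70 ± 0.431 to 2.47 ± 0.482 FPKM (-1.33, adjusted p = 9.07e-09), or -0.29 after median-ratio scaling. Hhat, which attaches palmitate to the ligand, went from 1.25 ± 0.201 to 2.17 ± 0.425 FPKM (0.49, adjusted p = 0.00125). Dhh, Desert hedgehog, was below the filter, with 0.0192 ± 0.0288 FPKM untreated, 0.367 ± 0.105 under Cu/ES, 0.919 ± 0.512 under Cu/ES with TCA and 0.00506 under TCA.

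Among the 18 tested Gli factors and their controllers, 7 were lower past both thresholds in group B, where 53.0% of all genes were, with a median of -0.82. After median-ratio scaling 3 were lower and 5 higher, where 25.6% and 26.0% of all genes were, and the median was 0.32, against -0.03 over all genes. The 5 were Numb, Csnk1d, Spop, Cul3 and Fbxw11, at 1.76, 1.55, 1.30, 1.14 and 1.07. Prkaca and Ulk3 had the 2 lowest log2 fold changes of the list as deposited. Prkaca, a catalytic subunit of protein kinase A, which primes Gli proteins for processing, went from 37.9 ± 2.09 to 5.36 ± 0.722 FPKM (-2.62, adjusted p = 3.12e-12). Ulk3, a kinase that acts on Gli proteins, went from 8.86 ± 1.78 to 0.973 ± 0.0902 FPKM (-2.31, adjusted p = 2.34e-10).

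Of 7 tested genes known to respond to Gli factors, 3 were lower and 1 was higher past both thresholds in group B, where 53.0% and 10.1% of all genes were, with a median of -0.88. After median-ratio scaling 2 were lower and 2 higher, where 25.6% and 26.0% of all genes were. Ccnd1, cyclin D1, went from 78.9 ± 17.8 to 2.51 ± 0.279 FPKM (-4.49, adjusted p = 4.57e-12), and Ccnd2, cyclin D2, from 12.6 ± 0.227 to 1.82 ± 0.292 (-2.28, adjusted p = 3.21e-11). Snai1, a transcription factor of epithelial plasticity, went from 10.2 ± 0.557 to 32.5 ± 1.23 FPKM (1.58, adjusted p = 2.23e-11) and to 44.0 ± 3.33 in group C. These genes answer to many signals besides Gli factors.

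Likeness of pattern was described by Pearson's r of log2(FPKM + 1) over the 12 libraries, among genes averaging at least 5 FPKM. For Smo the most alike were Bod1l (0.999), Prkar2b (0.999) and Rbms2 (0.998), and 3764 of 6877 genes exceeded 0.9. For Arrb1 they were Mxi1 (0.999), Mtss1 (0.998) and Tbl2 (0.998), and 3652 of 6877 genes exceeded 0.9. For Ihh they were Cadm4 (0.997), Gm15728 (0.996) and Rab7 (0.994), and 870 of 6878 genes exceeded 0.9. All points share the same libraries and the split between Cu/ES and no Cu/ES. By Spearman's rho the leading genes changed to Cpd, Cpne3 and Cpt1c for Smo, while Cadm4 led for Ihh (0.975), followed by its neighbour Cnppd1 (0.968).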

How the data were processed

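Libraries of polyadenylated RNA from AML12 cells in 4 groups of 3 were sequenced on an Illumina NovaSeq. The authors deposited FPKM values for 24824 gene symbols, replicates apart, and their processing notes name fastp, HISAT2, HTSeq and GRCm39. The reference used here is of GRCm38, so gene positions are given only for promoters. Read numbers follow from the steps between FPKM values: 22210 of 22212 genes above 0 in at least 2 libraries gave whole reads in every library (tolerance 0.05 reads).

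Groups came from sample titles. limma 3.58.1 (R 4.3.3) was fitted to log2(FPKM + 1) of all 12 libraries for genes averaging at least 1 FPKM, with a mean-variance trend and 8 residual degrees of freedom. A fold change on this scale understates that of low genes. P-values were two-sided with Benjamini-Hochberg adjustment over all 10615 genes, and thresholds were 0.05 and an absolute log2 fold change of 1. Members below the filter were compared by exact permutation. Median-ratio scaling divided each library by its median ratio to the gene-wise geometric mean.

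The members and lists were chosen with earlier results of these data known. Named besides the members were list genes past both thresholds with TCA or higher with Cu/ES, and the 2 lowest per list in group B. Dhh and the neighbours were named after values were seen. The fits were tested on simulated data. Alternatives were another pseudocount, filters, TPM, median-ratio and quantile scaling, limma-voom on recovered reads, no trend, only the groups compared, a replicate block, and each library left out. Other steps used Python 3.11.15 (scipy 1.17.1, pandas 2.3.3).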

Additional observations from a re-analysis of the deposited data

Results flagged for a closer look

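The difference between the responses to TCA with and without Cu/ES passed the adjusted p for 3 members (limma with Benjamini-Hochberg adjustment, 3 libraries in each of 4 groups). It was above 0 for each of them, as it was at the adjusted p for 17.7% of all genes tested. For Ihh the difference was 0.99 ± 0.11 on the log2 scale (SE, adjusted p = 4.74e-05), with all 3 libraries of group C above all of group B and at most 1 read in any library of groups A and D. It did not pass with limma-voom on recovered reads (1.41, adjusted p = 0.235; 1.41, adjusted p = 0.211 without a filter), and passed in the other 20 of 22 alternatives. For Arrb1 it was 0.79 ± 0.22 (adjusted p = 0.0129), and it passed in 22 of 23 alternatives, the exception being limma-voom without a filter (1.30, adjusted p = 0.103). The Ihh value repeats C against B, because groups A and D held too few reads to measure a response to TCA without Cu/ES.

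For Ptch1 the difference was 0.67 ± 0.21 (adjusted p = 0.0221), and it passed in 16 of 22 alternatives. It did not pass without A1 (0.58, adjusted p = 0.0608), A3 (0.60, adjusted p = 0.0562), C1 (0.55, adjusted p = 0.0545) or C3 (0.63, adjusted p = 0.0509), without a filter (adjusted p = 0.0661) or with limma-voom without a filter (0.86, adjusted p = 0.0539). In each group the library numbered 2 had the lowest FPKM of both Ptch1 and Arrb1. Causes were not tested.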

How the results depend on the processing

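Between groups B and A, 7 of 8 tested members passed both thresholds, where 53.0% of all genes were lower and 10.1% were higher. After quantile normalization 4 passed, and 3 passed at a mean FPKM minimum of 5, where fewer members are tested. Leaving out a library gave 6 to 7. Between C and D, 6 of 8 passed, where 53.3% of all genes were lower and 11.2% were higher. Here 3 passed at a mean FPKM minimum of 5 and 6 to 7 without a library, and quantile normalization lost Evc (-0.91) and Sufu (0.15). Median-ratio scaling left 4 lower and 1 higher, for B and A and for C and D alike. Gli3 passed both with a pseudocount of 0.1, TPM and limma-voom (-1.09, -1.37 and -1.11 for B and A, -1.16, -1.36 and -1.19 for C and D). Gli1 and Gli2 were lower past both in limma-voom without the filter. Between C and B, 0 passed, against 1 with a pseudocount of 0.1, TPM or median-ratio scaling, 2 with limma-voom (Ihh and Smo), 2 with limma-voom without the filter (Ihh and Gli2, the latter at an adjusted p of 0.0075, while Smo failed at 0.0659), and 0 to 1 without a library. For the difference of TCA effects, 3 passed the adjusted p, against 1 at a mean FPKM minimum of 5 (Arrb1, adjusted p = 0.00982; Ihh and Ptch1 are not tested there), 1 with limma-voom without a filter (Gli2, below 0, adjusted p = 0.0206, and none of those 3), and 2 to 4 without a library.

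Of the alternative values of single members, 655 kept direction and call, 19 newly passed, 33 no longer passed and 33 changed sign. Signs reversed with scaling and, near 0, with single libraries. Median-ratio scaling gave Gli3 0.15 (B and A), 0.066 (C and D) and 0.025 (D and A), Ptch1 0.57 (C and D) and Ihh 2.51e-05 (D and A). Quantile normalization gave Gli3 0.40, 0.28 and 0.042 for the same pairs, Ptch1 0.35 (B and A) and 0.93 (C and D), Sufu 0.17 (B and A), 0.15 (C and D) and -0.024 (difference of TCA effects), and Evc 0.0069 (C and B). Of these quantile values, those of Gli3 and Ptch1 for B and A and for C and D passed the adjusted p. TPM gave Gli3 0.010 for the difference of TCA effects. Leaving out a library moved differences near 0 across it: Evc -0.057 to 0.037 and Gli3 -0.17 to 0.056 (C and B), Evc2 -0.037 to 0.085, Gli3 -0.083 to 0.064 and Ihh -0.0040 to 0.0039 (D and A), and Gli3 -0.16 to 0.065 and Sufu -0.027 to 0.13 (difference of TCA effects). The causes were not tested.

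The genes tested were 10615, or 6878 at a mean FPKM minimum of 5 and 22210 with limma-voom without a filter. Of these, 6692 passed both thresholds between B and A (4089 at that minimum, 12698 with limma-voom without a filter) and 6851 between C and D (4280 and 13213). Between C and B 243 passed, against 703 with a pseudocount of 0.1, 386 with TPM, 154 with quantile normalization, 780 with limma-voom and 1710 without its filter. Between D and A 23 passed, against 95, 14 at a mean FPKM minimum of 5, 59 with TPM, 15 with median-ratio scaling, 104 with limma-voom and 409 without its filter.

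Replicate numbers are shared by the groups, but nothing says that they pair libraries, and deviations from group means correlated over 0.1 in 11 of 18 same-number pairs (mean r 0.125, against -0.059 for other pairs). With the replicate number as a block, 7 members passed between B and A, 6 between C and D, 0 between C and B and 0 between D and A. Of all 10615 genes, 6692, 6851, 243 and 23 passed in the same comparisons. At the adjusted p the block added Arrb1 and Ptch1 between C and B (0.35 and 0.31, adjusted p = 0.00699 and 0.0244) and between D and A (-0.44 and -0.36, adjusted p = 0.0052 and 0.0241). The block together with median-ratio scaling, chosen after the data were seen, gave 5, 5, 1 and 0 members, where 5479, 5646, 315 and 15 genes passed. It left Gli3 at 0.15, 0.066 and 0.025, Ptch1 at 0.57 and Ihh at 2.51e-05 as under that scaling. Depth limits Gli1 and Gli2, with at most 112 reads in a library.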
